A study of Mus musculus with 48 samples.

Results

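A set of 10 genes of the Wnt pathway was followed across a change of culture medium in mouse embryonic stem (ES) cells, 6 of them targets of the pathway and 4 of them the Tcf/Lef transcription factors through which it acts. They were chosen by name and Ensembl identifier, 10 of the 22745 genes in the table: the targets Axin2 (ENSMUSG00000000142), Nkd1 (ENSMUSG00000031661), Notum (ENSMUSG00000042988), Sp5 (ENSMUSG00000075304), Cdx1 (ENSMUSG00000024619) and Cdx2 (ENSMUSG00000029646), and the factors Lef1 (ENSMUSG00000027985), Tcf7 (ENSMUSG00000000782), Tcf7l1 (ENSMUSG00000055799) and Tcf7l2 (ENSMUSG00000024985). All 10 had a value in every array, and all 10 stayed in when genes of low mean (a share of 0.25 of the table) were left out. XX cells and XO cells, both of the line Pgk12.1, and XY cells of the line E14 were grown in N2B27 medium with the Gsk3 inhibitor CT-99021, the Mek1 inhibitor PD-0325901 and the cytokine LIF, and were then seeded on fibronectin with Activin A and basic Fgf, without the 2 inhibitors and LIF. RNA was taken between 0 and 84 h and hybridised to Affymetrix exon arrays, with 18 arrays of XX cells at 16 times, 19 of XO cells at 17 times and 10 of XY cells at 9 times. XX, XO and XY cells at 0 h and XX and XO cells at 36 h had 2 arrays each, lettered A and B. The other 37 conditions had 1, lettered B. A change from 0 h over windows or courses thus set both letters at 0 h against arrays that, except at 36 h, were B alone. Any difference between the letters can enter such a change. Each complement is 1 cell line, so that sex chromosomes and line cannot be told apart for XY cells. XX and XO cells share a line name, but other differences between them cannot be told apart from the number of X chromosomes either. The removal of the Gsk3 inhibitor cannot be told apart from the other changes of medium made at the same time. In bulk RNA of this kind, fewer cells of a type and less RNA per cell cannot be told apart. The labelled cell type was not checked against marker genes, because the table gives identifiers without symbols.

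In cells without a Wnt signal, a complex that holds Axin, Apc and Gsk3 marks beta-catenin for destruction. A Wnt signal, or an inhibitor of Gsk3, lets beta-catenin build up and enter the nucleus, where it binds Tcf/Lef proteins on DNA and turns on target genes, several of which feed back to dampen the pathway. In mouse ES cells Tcf7l1 acts mainly as a repressor of pluripotency genes, and Gsk3 inhibition, which counters that repression, helps to hold the cells in the naive state.

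The bases just before a gene's start are one place where Tcf/Lef proteins could bind, so the promoter windows of the genes were read from RefSeq (mouse build GRCm38.p6), each holding 250 bases before and 50 bases from a start site. Such a window was found for 8 of the 10 genes, 13 windows in all, and Notum and Cdx1 had none in the table used. Both strands were searched for the motif CTTTGAA, for its variant CTTTGAT, for the motif CTTTGTA and for its variant CTTTGTT, which cannot overlap one another on the same strand. In all, 3 of the 13 windows (23.1%) held a match, against 5544 of all 32851 windows (16.9%). The windows shown are those 3 and the one of Axin2, the target with the largest fall, and capitals mark the matched letters in the strand of the gene.
Sp5: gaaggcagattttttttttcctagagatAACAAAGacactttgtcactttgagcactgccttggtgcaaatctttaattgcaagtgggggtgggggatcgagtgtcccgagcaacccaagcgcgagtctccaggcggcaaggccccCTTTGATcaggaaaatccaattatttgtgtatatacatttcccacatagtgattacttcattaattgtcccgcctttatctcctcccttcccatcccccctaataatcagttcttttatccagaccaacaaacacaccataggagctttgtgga
Lef1: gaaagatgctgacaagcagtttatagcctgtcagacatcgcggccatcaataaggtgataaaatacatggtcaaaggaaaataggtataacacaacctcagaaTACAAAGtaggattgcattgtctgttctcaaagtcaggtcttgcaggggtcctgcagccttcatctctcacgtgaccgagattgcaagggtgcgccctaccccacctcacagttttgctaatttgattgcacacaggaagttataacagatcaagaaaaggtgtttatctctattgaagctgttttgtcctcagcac
Tcf7l2: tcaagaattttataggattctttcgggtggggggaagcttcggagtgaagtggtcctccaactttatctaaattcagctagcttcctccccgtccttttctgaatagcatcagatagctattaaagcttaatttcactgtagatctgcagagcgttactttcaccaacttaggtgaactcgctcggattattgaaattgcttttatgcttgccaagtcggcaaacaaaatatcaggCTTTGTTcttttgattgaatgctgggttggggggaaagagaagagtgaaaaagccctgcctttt
Axin2: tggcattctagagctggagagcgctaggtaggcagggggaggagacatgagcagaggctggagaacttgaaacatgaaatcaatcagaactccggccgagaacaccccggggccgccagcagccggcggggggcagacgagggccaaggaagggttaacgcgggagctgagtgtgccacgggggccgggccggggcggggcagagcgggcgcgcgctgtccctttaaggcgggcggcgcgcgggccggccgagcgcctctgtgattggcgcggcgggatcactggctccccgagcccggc
The Sp5 window, chr2:70474673-70474972 on the plus strand, held 2 matches, at positions -222 and -104 from the start site, and 1.94% of all windows held as many. The Lef1 window, chr3:131156044-131156343 on the plus strand, belongs to a start site inside the gene, which spans chr3:131110297-131224357, and its match begins at position -147 from that site. The Tcf7l2 window, chr19:55895071-55895370 on the plus strand, also belongs to an inner start site of a gene that spans chr19:55741797-55933659, with a match at position -14. The Axin2 window, chr11:108920099-108920398 on the plus strand, held none. It too belongs to an inner start site, of a gene that spans chr11:108917828-108950783. The bases before the outer end of Axin2 were not searched. A match describes these letters and not a bound site.

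Values are on the authors' log2 RMA scale, on which a difference of 1 is a change of 2-fold, and they are compared within a gene only. A gene was called where limma gave a Benjamini-Hochberg adjusted p under 0.05 over all 22745 genes. Array medians lay between 6.80 and 7.10. The 4 XO arrays at 12, 52, 56 and 60 h and the XY array at 32 h had a narrow spread of values, with an SD over genes of 1.99 to 2.01, against 2.02 to 2.17 in the other 42 cell arrays. Replicate letters do not say whether A and B were separate cultures. In tests on the conditions with 2 arrays, the p-values therefore measure only the spread between these arrays, which may be technical. In the other tests they rest mostly on the spread between different times of a line, which includes change over time.

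Lef1, a factor that with beta-catenin activates transcription and is itself a Wnt target, rose in all 3 lines and varied more than nearly every other gene. Its SD over the 47 cell arrays was 1.67, larger than that of 99.7% of genes, where the median gene had 0.35. In XX cells it read 5.88 and 5.48 at 0 h, 5.66 at 6 h, 6.16 at 12 h, 6.11 at 18 h, 7.29 at 24 h, 7.35 at 32 h, 8.68 and 8.29 at 36 h, 8.51 at 40 h, 9.30 at 44 h, 9.49 at 48 h, 9.35 at 52 h, 9.78 at 56 h, 9.63 at 60 h, 9.03 at 66 h, 8.48 at 72 h and 8.34 at 84 h. In XO cells it read 7.18 and 7.16 at 0 h, 7.22 at 6 h, 8.48 at 12 h, 9.24 at 18 h, 10.12 at 24 h, 10.25 at 28 h, 10.51 at 32 h, 11.01 and 10.68 at 36 h, 10.79 at 40 h, 10.81 at 44 h, 10.52 at 48 h, 10.21 at 52 h, 9.97 at 56 h, 9.52 at 60 h, 9.02 at 66 h, 9.15 at 72 h and 9.60 at 84 h. The lowest arrays of both lines were at 0 or 6 h, and at every shared hour up to 56 h the XO arrays stood above the XX arrays. In XY cells Lef1 read 5.31 and 6.11 at 0 h, 6.37 at 8 h, 8.63 at 16 h, 9.96 at 24 h, 10.70 at 32 h, 10.82 at 48 h, 10.27 at 60 h, 9.61 at 72 h and 9.08 at 84 h. The first time at least 2 log2 units above the line's own 0 h mean was 36 h in XX cells, 18 h in XO cells and 16 h in XY cells. The highest value came at 56 h in XX cells, 4.10 above 0 h, at 36 h in XO cells, 3.68 above 0 h, and at 48 h in XY cells, 5.10 above 0 h. After the peak the values came down in each line without a return to the 0 h level.

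**Figure D1:**
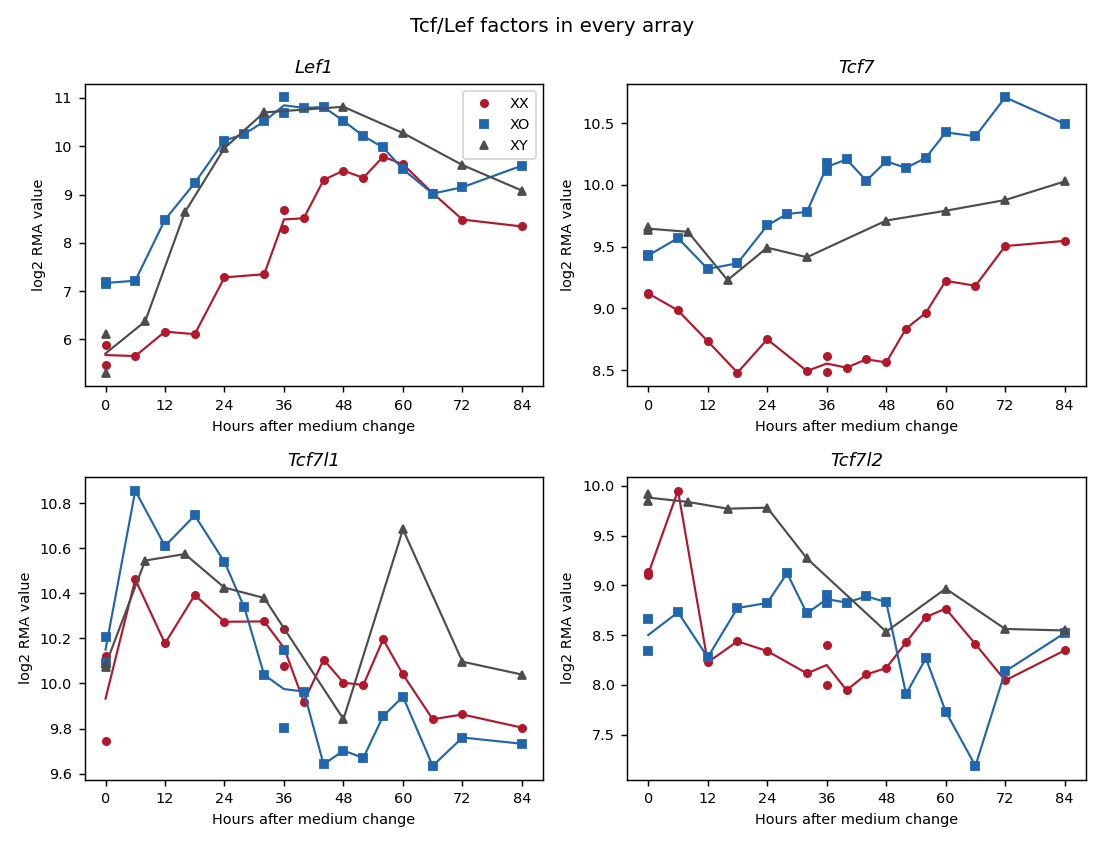
Log2 RMA value (vertical axis) of the 4 Tcf/Lef factors against hours after the medium change (horizontal axis). Each point is 1 array, and lines join the means per time of XX (red circles), XO (blue squares) and XY cells (grey triangles). Lef1 climbed in all 3 lines and later in XX than in XO or XY cells, and XX cells had the lowest Tcf7 value wherever lines shared a time.

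At 0 h Lef1 was the 1 gene of the 10 called between XX and XO cells, against 9.15% of all genes. The 2 XX arrays lay below both XO arrays, by 1.49 (SE 0.27, adjusted p = 0.0117). The adjusted p rose to between 0.0656 and 0.0691 without XX array B, XO array A or XO array B. Tcf7l2 read 9.13 and 9.10 in XX cells and 8.34 and 8.66 in XO cells, which did not overlap, but the difference of 0.61 missed the threshold (SE 0.17, adjusted p = 0.0622). Over the 10 genes the median difference was -0.26, beside 0.06 over all genes.

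XX and XO cells were each set against E14 XY cells at 0 h, and since both use the same XY arrays their values are given side by side. Of the 10 genes, 4 were lower in XX than in XY cells and none was higher, against 12.4% of all genes called, and 3 were called between XO and XY cells, 1 higher and 2 lower, against 9.7% of all genes. Cdx1, a caudal-type homeobox factor that patterns the embryo's trunk, read 7.75 and 7.99 in XX cells and 7.68 and 7.95 in XO cells, and 9.27 and 8.71 in XY cells. Every XY array stood above every Pgk12.1 array, and the difference was -1.12 for XX minus XY (SE 0.20, adjusted p = 0.0087) and -1.18 for XO minus XY (SE 0.20, adjusted p = 0.0102). Tcf7l2, a factor that can activate or repress with its partners, read 9.92 and 9.84 in XY cells, above both Pgk12.1 lines, with a difference of -0.77 for XX (SE 0.17, adjusted p = 0.0227) and of -1.38 for XO (SE 0.17, adjusted p = 0.00314). Lef1 was 1.46 higher in XO than in XY cells (SE 0.27, adjusted p = 0.0144). Axin2 and Tcf7 were 1.15 and 0.52 lower in XX than in XY cells (adjusted p = 0.0481 and 0.0291). Without single arrays several of these calls went. Tcf7 missed the threshold without any 1 of the 4 arrays (adjusted p 0.082 to 0.123), as did Axin2 without XX array B, XY array A or XY array B (0.0836 to 0.22). Tcf7l2 in XX missed it without any 1 of the 4 (0.0699 to 0.109). Cdx1 in XO missed it without XO array A or XY array A (0.0661 and 0.0538), and Lef1 in XO without XO array A, XO array B or XY array A (0.0691 to 0.085).

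At 36 h the genes called between XX and XO cells were factors. Of the 10 genes 3 were called, all 3 of them factors and lower in XX cells, against 8.97% of all genes, and the median difference was -1.13 over the factors, 0.02 over the targets and 0.04 over all genes. Lef1 read 8.68 and 8.29 in XX cells, against 11.01 and 10.68 in XO cells, a difference of -2.36 (SE 0.27, adjusted p = 0.0014). Tcf7, an activator with beta-catenin that can also repress without it, read 8.62 and 8.49 in XX cells, against 10.18 and 10.12 in XO cells. No XX array of these 2 genes reached an XO array, and Tcf7 differed by -1.59 (SE 0.13, adjusted p = 3.07e-04). Tcf7l2 read 8.40 and 8.00 in XX cells, against 8.90 and 8.82 in XO cells, a difference of -0.66 (SE 0.17, adjusted p = 0.048). That call went with the arrays paired by letter (adjusted p = 0.067), and without XX array B, XO array A or XO array B (0.13 to 0.246). Axin2 read 7.55 and 6.92 in XX cells, against 8.17 and 8.22 in XO cells, and its difference of -0.96 missed the threshold (SE 0.32, adjusted p = 0.106).

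Between 36 h and 0 h, with 2 arrays at each time, 3 of the 10 genes were called in XX cells, 1 higher and 2 lower (13.4% of all genes), and 2 in XO cells, both higher (18.9% of all genes). Lef1 rose by 2.81 in XX cells (SE 0.27, adjusted p = 2.96e-04) and by 3.68 in XO cells (SE 0.27, adjusted p = 4.18e-05). Tcf7 went in opposite directions. It fell by 0.57 in XX cells (SE 0.13, adjusted p = 0.0183), where it read 8.62 and 8.49 at 36 h and 9.12 and 9.12 at 0 h, and rose by 0.72 in XO cells (SE 0.13, adjusted p = 0.00476), where it read 10.18 and 10.12 at 36 h and 9.43 and 9.43 at 0 h. Without any 1 of the 4 XX arrays the adjusted p of the fall was 0.0505 to 0.114. Tcf7l2 fell by 0.92 in XX cells (SE 0.17, adjusted p = 0.00854, and 0.0656 without XX array B at 36 h) and had a change of 0.36 in XO cells that missed the threshold (adjusted p = 0.192). When the XX and XO changes were set against each other, limma called 2 of the 10 genes, both lower in XX (1.65% of all genes), with -1.29 for Tcf7 (SE 0.18, adjusted p = 0.0148) and -1.28 for Tcf7l2 (SE 0.25, adjusted p = 0.0432). The Tcf7 call went without any 1 of 6 arrays, the exceptions being the XX arrays at 0 h (adjusted p 0.0524 to 0.0692), and the Tcf7l2 call went without any 1 of the 8 arrays (0.0652 to 0.138), under quantile normalisation (0.0615) and with the arrays paired by letter (0.0648). For Lef1 the difference between the changes was -0.87 and missed the threshold (95% interval -1.75 to 0.003, adjusted p = 0.331).

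The arrays with 1 per time were grouped into windows within each line, so that in these tests neighbouring times served as replicates of one another. In the 6 to 18 h window none of the 10 genes was called in XX cells by limma (9.57% of all genes), 4 of them having an unadjusted p under 0.05. In XO cells 1 rose (6.16% of all genes), and 1 rose and 2 fell in XY cells (7.64% of all genes). The XO gene was Tcf7l1, which read 10.86 at 6 h, 10.61 at 12 h and 10.75 at 18 h, above its 10.21 and 10.09 at 0 h, a change of 0.59 (SE 0.15, adjusted p = 0.0097). Without XO array A or B at 0 h the adjusted p was 0.0539 or 0.174. In XX cells Tcf7l1 was also highest at 6 h, at 10.46. Its change in this window was 0.41 in XX cells (SE 0.15, adjusted p = 0.0696) and 0.48 in XY cells (SE 0.16, adjusted p = 0.0584). Both missed the threshold, and both were called with a window of 6 to 24 h. Set against each other, the XX and XO changes in this window gave no call among the 10 genes by limma (0.101% of all genes), 1 of them having an unadjusted p under 0.05.

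In XY cells at 8 and 16 h the targets Cdx1 and Axin2 were already lower. Cdx1 read 7.89 and 7.49 there, against 9.27 and 8.71 at 0 h, a change of -1.30 (SE 0.18, adjusted p = 6.57e-06). Axin2, a scaffold of the destruction complex that is induced by Wnt and dampens it, read 7.41 and 8.08, against 8.73 and 9.18 at 0 h. Neither gene overlapped its 0 h arrays, and Axin2 changed by -1.21 (SE 0.38, adjusted p = 0.0439). The Axin2 call went without either XY array at 0 h (adjusted p = 0.0929 and 0.281) and without the 84 h arrays (0.0533). Lef1 had risen by 1.79 (SE 0.52, adjusted p = 0.0292), a call that went without XY array A at 0 h (0.28).

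Between 24 and 36 h, 3 of the 10 genes were called in each line, against 15.5% of all genes in XX, 24.2% in XO and 14.6% in XY cells. Lef1 was 2.22 above 0 h in XX cells (SE 0.45, adjusted p = 5.23e-04), 3.35 above in XO cells (SE 0.44, adjusted p = 4.84e-07) and 4.62 above in XY cells (SE 0.52, adjusted p = 7.57e-08). The other calls differed by line. Tcf7 and Tcf7l2 fell by 0.53 and 0.90 in XX cells (adjusted p = 0.0101 and 0.0297), and Tcf7 rose by 0.47 while Sp5 fell by 0.39 in XO cells (adjusted p = 0.0133 and 0.0417). In XY cells Axin2 and Cdx1 fell by 1.58 and 1.29 (adjusted p = 0.00367 and 2.69e-06). The Tcf7 fall in XX went without either XX array at 0 h (adjusted p = 0.0666 and 0.104), and the Tcf7 rise in XO without either XO array at 0 h (0.0912 and 0.105) or with arrays centred (0.0522) or quantile normalised (0.141). The Tcf7l2 fall in XX went without either XX array at 0 h or XX array B at 36 h (0.0748 to 0.179), and the Sp5 fall in XO without either XO array at 0 h (0.181 and 0.192). The Axin2 fall in XY went without XY array B at 0 h (0.0663) and without the 5 arrays of narrow spread (0.267). The difference between the XX and XO changes was called for Tcf7 alone among the 10 (2.56% of all genes), at -1.01 (SE 0.21, adjusted p = 0.00544).

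Between 66 and 84 h, 2 of the 10 genes were called in XX cells, both higher (17.9% of all genes), 5 in XO cells, 3 higher and 2 lower (27.6%), and 6 in XY cells, 2 higher and 4 lower (29.2%). Nkd1, which binds Dishevelled and dampens Wnt signalling, was higher in all 3 lines. It read 7.77, 7.70 and 7.75 at 66, 72 and 84 h in XX cells, 7.97, 8.20 and 7.94 in XO cells, and 7.44 and 7.55 at 72 and 84 h in XY cells. All these arrays stood above both 0 h arrays of their line, at 7.03 and 6.85 for XX cells, 6.84 and 6.71 for XO cells and 6.74 and 6.72 for XY cells. The change was 0.81 in XX (SE 0.15, adjusted p = 9.41e-05), 1.26 in XO (SE 0.15, adjusted p = 3.29e-08) and 0.76 in XY cells (SE 0.16, adjusted p = 3.98e-04). Tcf7 had risen by 1.10 in XO cells (SE 0.16, adjusted p = 1e-06), and Tcf7l1, the repressor of the family, had fallen there by 0.44 (SE 0.15, adjusted p = 0.0203). The Tcf7l1 call went without either XO array at 0 h (0.0572 and 0.163) and with a window of 60 to 84 h (0.0764). Lef1 stayed up by 2.94 in XX, 2.09 in XO and 3.63 in XY cells (SE 0.48, 0.48 and 0.52, adjusted p = 1.76e-05, 9.21e-04 and 1.36e-06). Tcf7l2 had fallen by 1.33 in XY cells (SE 0.34, adjusted p = 0.00265). Its changes of -0.85 in XX and -0.55 in XO cells missed the threshold (adjusted p = 0.0513 and 0.197). The XX fall was called with arrays centred or quantile normalised, with genes of low mean left out and with a variance trend. Under quantile normalisation the XO fall was called as well.

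Notum, a secreted enzyme that removes the lipid from Wnt proteins and so switches them off, had by then fallen in 2 of the 3 lines. It fell by 1.27 in XO cells (SE 0.29, adjusted p = 7.47e-04) and by 1.18 in XY cells (SE 0.31, adjusted p = 0.00397), and its change of -0.40 in XX cells missed the threshold (adjusted p = 0.408). Before that it had been above 0 h. Its highest array was 8.48 at 18 h in XX cells, where 0 h read 7.85 and 7.12, 9.28 at 28 h in XO cells, where 0 h read 8.43 and 7.96, and 8.81 at 32 h in XY cells, where 0 h read 8.17 and 8.09. The rise before the fall missed the threshold in each line in the main fit. In XX cells the arrays from 24 to 36 h, at 7.95 to 8.46, nevertheless stood above both 0 h arrays, which lay apart from each other. The fall between the 2 windows, 66 to 84 h minus 24 to 36 h, was called in all 3, at -1.11 in XX (SE 0.24, adjusted p = 0.00144), -1.71 in XO (SE 0.23, adjusted p = 4.74e-07) and -1.67 in XY cells (SE 0.31, adjusted p = 1.87e-04).

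In that comparison of late with middle times, 4 of the 10 genes were called in XX cells, 2 in each direction (12.1% of all genes), 6 in XO cells, 2 higher and 4 lower (22.8%), and 4 in XY cells, 2 in each direction (18.1%). Nkd1 and Tcf7 rose in all 3 lines. Nkd1 rose by 0.74 in XX, 1.04 in XO and 0.54 in XY cells (adjusted p = 6.26e-05, 2.63e-08 and 0.0165), and Tcf7 by 0.82, 0.63 and 0.50 (adjusted p = 3.19e-05, 2.14e-04 and 0.0379). Tcf7l1 fell by 0.38 in XX cells (SE 0.12, adjusted p = 0.0343) and 0.46 in XO cells (SE 0.12, adjusted p = 0.00276). Tcf7l2 fell by 0.93 in XO cells (SE 0.25, adjusted p = 0.00457) and 0.97 in XY cells (SE 0.34, adjusted p = 0.0404). Lef1 fell by 1.26 in XO cells (SE 0.38, adjusted p = 0.0142). The Tcf7l1 fall in XX cells went without XX array A at 36 h (adjusted p = 0.0647), without the 84 h arrays (0.124) and with a window of 60 to 84 h (0.11). The XY calls of Nkd1, Tcf7 and Tcf7l2 went without the 84 h arrays (0.136, 0.229 and 0.132). With the window of 60 to 84 h Nkd1 and Tcf7l2 missed the threshold (0.0903 and 0.0704), and under quantile normalisation Nkd1 and Tcf7 did (0.0552 and 0.0736). Tcf7 also missed it with arrays centred (0.0549) and without the 5 arrays of narrow spread (0.169). The windows of 24 to 36 h and this comparison were added after the data had been seen.

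**Figure D2:**
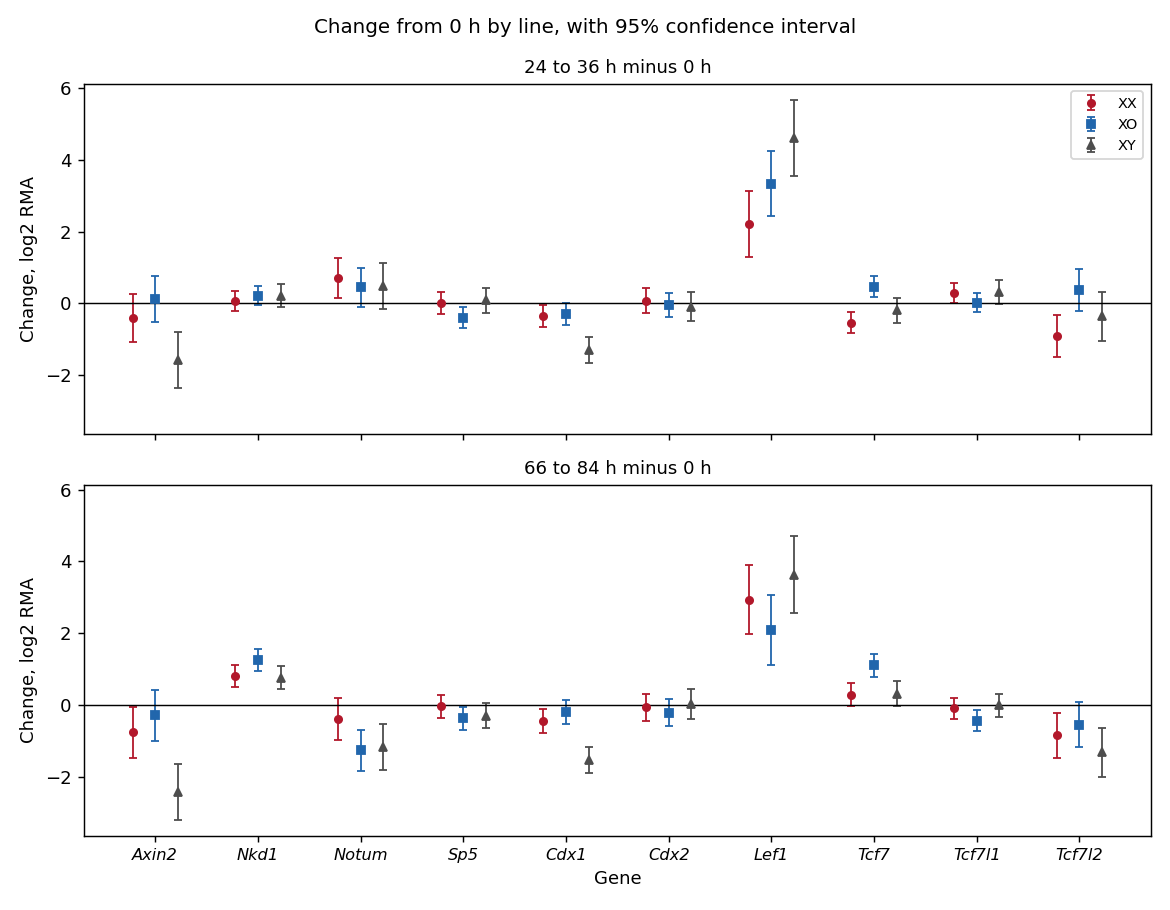
Change from 0 h (log2 RMA, vertical axis) of the 10 genes (horizontal axis) in the windows of 24 to 36 h and 66 to 84 h. Points are limma estimates with their 95% confidence intervals for XX (red), XO (blue) and XY cells (grey). Lef1 lies above 0 in all 3 lines in both windows, Nkd1 in the later one, and Axin2 and Cdx1 lie farthest below 0 in XY cells.

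Axin2 and Cdx1 fell furthest in XY cells, and their courses differed in shape between XO and XY cells but gave no call between XX and XO cells (adjusted p = 0.564 and 0.629). In XY cells Axin2 read 8.11 at 24 h, 6.65 at 32 h, 5.97 at 48 h, 5.84 at 60 h, 6.66 at 72 h and 6.40 at 84 h, and in the window of 66 to 84 h it was 2.42 below 0 h (SE 0.38, adjusted p = 5.5e-06). No XY array after 0 h reached a 0 h array. In XO cells Axin2 went up to 8.84 at 24 h, down to 6.83 at 52 h, and stood at 8.27 at 72 h and 7.97 at 84 h. In XX cells it read 8.27 and 7.34 at 0 h, 6.70 at 6 h, 8.11 at 24 h, 6.54 at 40 h and 7.15 at 84 h. The XO arrays at 72 and 84 h were thus back near their 0 h arrays, 8.31 and 8.06, whereas those of XY cells were not, and XO cells were above XY cells at all 6 times both lines had after 0 h, by 0.73 to 1.61. Cdx1 in XY cells had come down to 7.08 at 60 h, 7.09 at 72 h and 7.83 at 84 h, and was 1.53 below 0 h between 66 and 84 h (SE 0.18, adjusted p = 3.01e-08). In Pgk12.1 cells Cdx1 kept to 7.17 to 7.99 in XX and 7.39 to 7.95 in XO cells, within 1 log2 unit. Its changes between 66 and 84 h, -0.44 in XX and -0.20 in XO cells, missed the threshold (adjusted p = 0.0615 and 0.417). The XX change was called with arrays centred and with genes of low mean left out.

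Sp5 and Cdx2 were the steadiest of the 10 genes. Sp5, a zinc finger factor induced by Wnt, kept to 7.33 to 8.04 in XX, 7.23 to 7.82 in XO and 7.46 to 8.17 in XY cells, and its SD over the 47 arrays, 0.22, was larger than that of only 11.2% of genes. Cdx2, a caudal-type homeobox factor of the trophectoderm and hindgut, kept to 7.49 to 8.22 in XX, 7.40 to 8.37 in XO and 7.30 to 7.87 in XY cells, with an SD of 0.24. Neither was called over the course in any line by the main fit, but both were in XO cells under some of the alternatives.

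**Figure D3:**
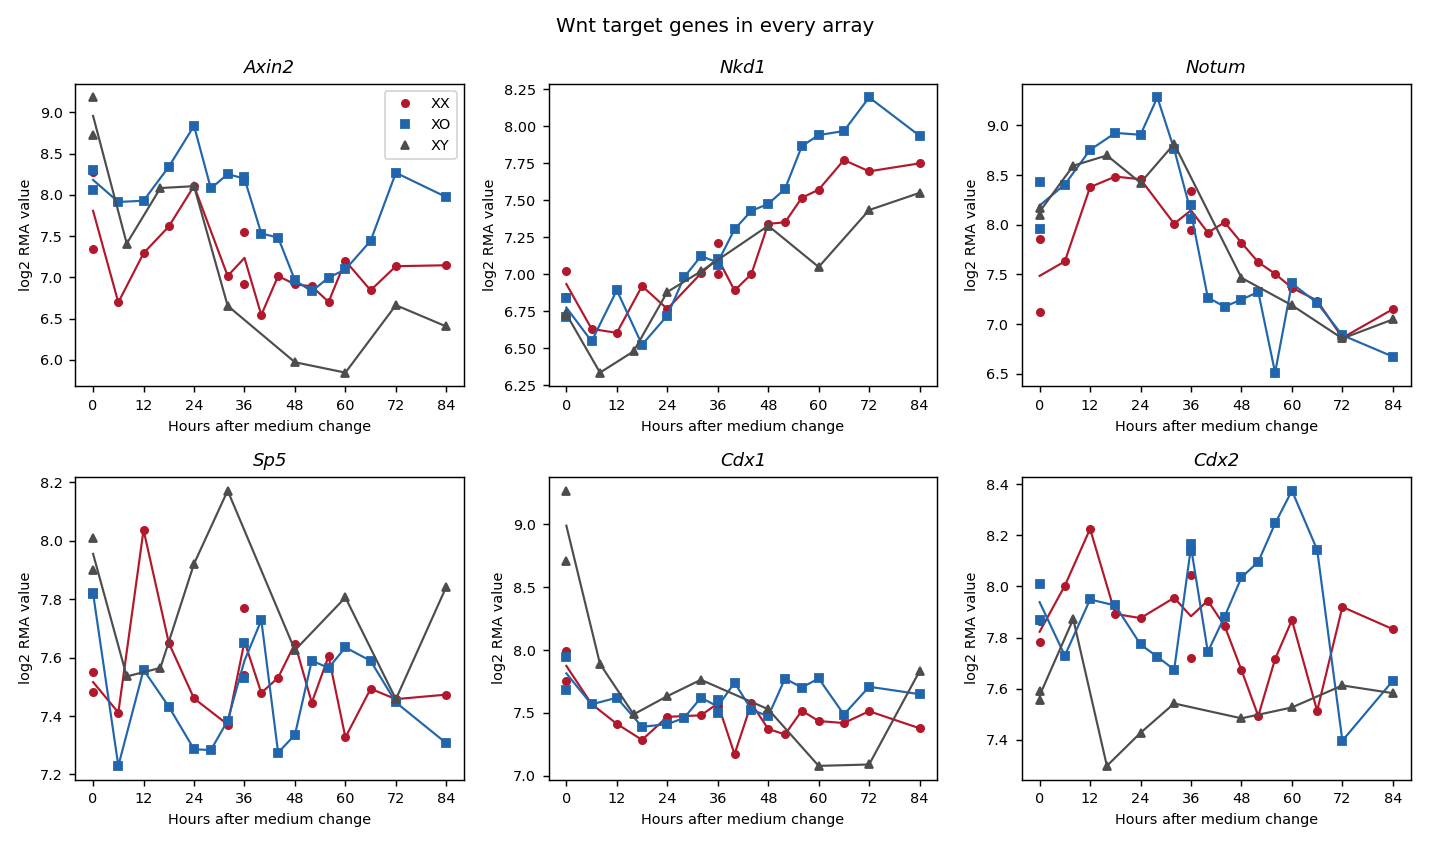
Log2 RMA value (vertical axis) of the 6 target genes against hours after the medium change (horizontal axis). Each point is 1 array, and lines join the means per time of XX (red circles), XO (blue squares) and XY cells (grey triangles). Axin2 and Cdx1 of XY cells leave their 0 h level by 8 h, Nkd1 climbs late, Notum comes down after a high between 18 and 32 h, and Sp5 and Cdx2 stay within 1 log2 unit in each line.

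A smooth curve fitted over all times of a line called 7 of the 10 genes in XX cells (34.1% of all genes), 7 in XO cells (53.9%) and 8 in XY cells (50.2%), by an F test of the curve against a flat line. A group of 6 genes, Nkd1, Notum, Lef1, Tcf7, Tcf7l1 and Tcf7l2, were called in every line. At 84 h the fitted curve stood above 0 h in all 3 lines for Nkd1, Lef1 and Tcf7, and below it for Notum, Tcf7l1 and Tcf7l2. For Tcf7l2 in XO cells the fitted difference was -0.11 and became 0.06 with a more flexible curve. Its XO values were 7.19 at 66 h and 8.52 at 84 h. Cdx1 was called in XX cells (adjusted p = 0.0378) and XY cells (8.05e-12), and Axin2 in XO cells (0.00441) and XY cells (3.35e-06). The XX call of Cdx1 went without either XX array at 0 h (adjusted p = 0.0874 and 0.514), under quantile normalisation (0.0582) and with a spline of 3 degrees of freedom (0.256). The XX call of Tcf7l1 went without the 84 h arrays (0.121) and with splines of 3 or 5 degrees of freedom (0.171 and 0.074). The XY call of Tcf7l1 passed under 4 of 10 alternatives. It went without XY array A, XY array B or the 84 h arrays (0.0555 to 0.116), with arrays centred (0.0729) or quantile normalised (0.135), and with a spline of 3 degrees of freedom (0.427). The Axin2 call in XO cells went without the 5 arrays of narrow spread (adjusted p = 0.158). Under quantile normalisation Sp5, Cdx1 and Cdx2 were also called over the XO course. Cdx2 was called there too with arrays centred, with genes of low mean left out and without the 84 h arrays. A spline of 3 degrees of freedom likewise called Cdx2 in XO cells.

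Whether a course differed in shape between lines was tested on the change from each line's own 0 h. Between XX and XO cells 6 of the 10 genes differed (27.1% of all genes), the 4 factors among them. The largest fitted gaps of the XX change to the XO change were -1.58 at 26 h for Lef1 (adjusted p = 4.53e-08), -1.21 at 41 h for Tcf7 (2.11e-07), -1.71 at 34 h for Tcf7l2 (3.22e-04), 0.53 at 46 h for Tcf7l1 (0.0167), 1.03 at 56 h for Notum (0.00868) and 0.46 at 84 h for Cdx2 (0.0443). The sign of a largest gap is not settled where 2 stretches of a course lie on opposite sides, as in Lef1, whose XX change was behind the XO change early and ahead of it late. Without XX array A at 0 h the largest Lef1 gap was 1.49, without XX array A or XO array B at 0 h that of Cdx2 was -0.49 or -0.50, and without XX array B that of Tcf7l1 was -0.38, all still called. Without XX array B, XO array A or the 5 arrays of narrow spread Cdx2 was no longer called (adjusted p 0.0505 to 0.324), nor with a spline of 5 degrees of freedom (0.105), and Tcf7l1 was not with one of 3 (0.0747). Between XO and XY cells 7 of the 10 differed (23.5% of all genes), with 2.47 at 84 h for Axin2 (adjusted p = 0.0145), 1.82 at 62 h for Cdx1 (1.57e-06) and -2.15 at 57 h for Lef1 (9e-04). The Axin2 call went without XY array B at 0 h (adjusted p = 0.0757) and without the 5 arrays of narrow spread (0.0565).

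Beyond the change from 0 h, the level itself was compared between XX and XO cells over the 15 times after 0 h that both lines had, each time serving as a block. Except at 36 h each time had 1 array per line. The SE and p therefore measure how the gap varied over neighbouring times, not between separate cultures. Of the 10 genes 4 were called, all lower in XX cells, against 29.7% of all genes called in either direction, with a median over the 10 genes of -0.12 beside -0.01 over all genes. Tcf7 was lower in XX cells at 15 of 15 times, by 0.59 to 1.69, and on average by 1.18 (SE 0.09, adjusted p = 1.23e-08). Lef1 was lower at 13 of 15 times and on average by 1.54 (SE 0.26, adjusted p = 1.25e-04), with a gap of -3.16 at 32 h and of 0.11 at 60 h. The Lef1 gap was near 0 between 56 and 66 h and stood at -1.26 again at 84 h, whereas the Tcf7 gap was below 0 throughout. Axin2 was lower at 13 of 15 times and on average by 0.65 (SE 0.11, adjusted p = 1.35e-04), and Cdx1 at 11 of 15 times and on average by 0.17 (SE 0.06, adjusted p = 0.033). The Cdx1 call went without the 84 h arrays (adjusted p = 0.0552) or the 5 arrays of narrow spread (0.198). Nkd1, lower in XX cells at 11 of 15 times and on average by 0.18, was not called in the main fit. It was called with arrays centred or quantile normalised and with genes of low mean left out. Tcf7l2 averaged -0.02 (adjusted p = 0.95), with values from -0.88 at 40 h up to 1.22 at 66 h. Its gap was also 1.22 at 6 h, where the 1 XX array read 9.95, before 8.23 at 12 h. Over the late window, where the change from 0 h was compared, 1 of the 10 genes differed between XX and XO cells (8.93% of all genes), Tcf7 at -0.81 (SE 0.22, adjusted p = 0.0161). That call went with arrays centred (adjusted p = 0.0596) or quantile normalised (0.13), and without XX array A, XO array A or XO array B at 0 h (0.0554 to 0.0604).

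**Figure D4:**
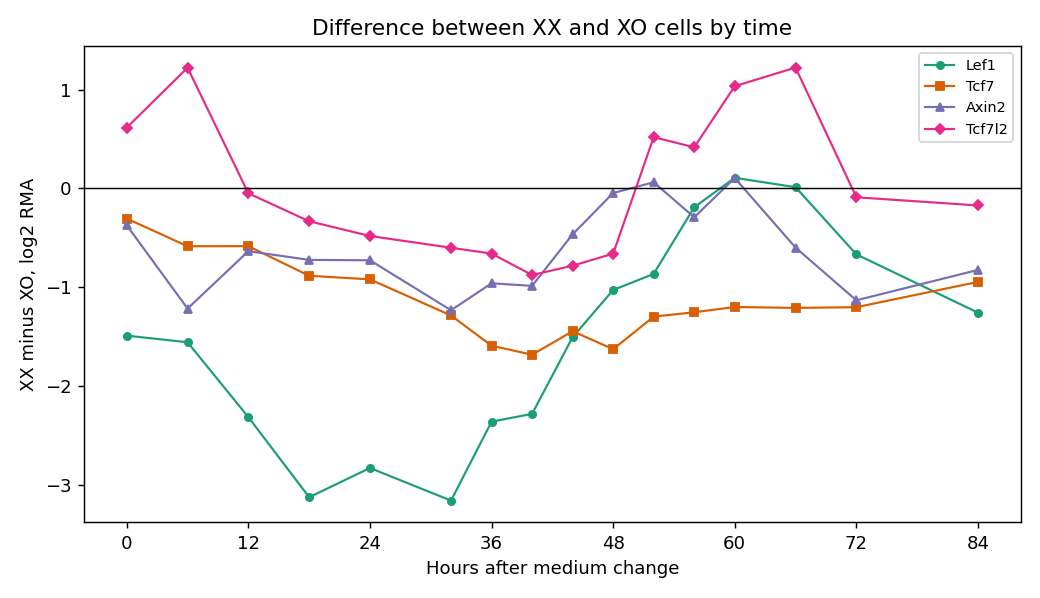
XX minus XO difference (log2 RMA, vertical axis) of Lef1, Tcf7, Axin2 and Tcf7l2 against hours after the medium change (horizontal axis), from 1 array of each line per time except 0 and 36 h, where the means of 2 were used. Tcf7 lies below 0 at every time, Lef1 is lowest at 32 h with -3.16 and near 0 at 60 and 66 h, and Tcf7l2 crosses 0 more than once.

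As a description of likeness, the genes with the values most like Axin2 and Tcf7l1 over the 47 cell arrays were ENSMUSG00000002190 (Pearson r = 0.817) and ENSMUSG00000024970 (r = 0.838). Arrays of one line and of neighbouring times share much else, so no p is given. Among the 10 genes, with each line's mean taken out, Nkd1 went with Tcf7 (r = 0.777) and against Notum (r = -0.786), and Notum went with Tcf7l1 (r = 0.701), over the same 47 arrays.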

How the data were processed

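Gene expression was measured in 47 arrays of mouse ES cells and 1 array of a reference RNA, per the labels. The deposited values are log2 expression per Ensembl gene on the RMA scale, which the submitters' processing notes name together with affy as what the authors used; the genome build is not given in the sources used here. Array precision is limited by the number of arrays. From these values, limma 3.58.1 (R 4.3.3) fitted 4 linear models to all 22745 genes: the 10 lettered arrays, windows per line, a natural cubic spline with 4 degrees of freedom per line, and the XX minus XO level with time as a block. In all, 28 tests are given. Every p was adjusted by Benjamini-Hochberg over all genes. The fits were tested on simulated data. Alternatives were centring, quantile normalisation, a low-value filter, a variance trend, other windows and splines, a block for the replicate letter, and leaving out arrays. Gene symbols come from the list that defined the 10 genes. Other Wnt pathway lists and marker lists could not be matched, because the RefSeq table used held an Ensembl identifier for 0 of its 49997 genes. The genes named are the 10, and for Axin2 and Tcf7l1 the gene of closest correlation. The members and lists were chosen with earlier results of these data known. Group labels came from the sample titles and characteristics; the reference RNA array, whose source and description disagree, entered no test.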

Additional observations from a re-analysis of the deposited data

Results flagged for a closer look

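The change from 0 h differed between XX and XO cells, by limma's test of the difference itself, for 2 genes at 36 h. The difference was -1.29 for Tcf7 and -1.28 for Tcf7l2. For Tcf7 it was also called in the windows of 24 to 36 h, at -1.01, and of 66 to 84 h, at -0.81. At 36 h the Tcf7 difference passed under 7 of 13 alternatives and that of Tcf7l2 under 3 of 13. In the windows the Tcf7 difference passed under 14 of 14 alternatives at 24 to 36 h and 6 of 11 at 66 to 84 h.

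The shape of the course differed between XX and XO cells for Lef1 (largest gap -1.58), Tcf7 (-1.21), Tcf7l2 (-1.71), Tcf7l1 (0.53), Notum (1.03) and Cdx2 (0.46). The sign of the largest gap turned for Lef1, Tcf7l1 and Cdx2 when certain single arrays at 0 h were left out. Between XO and XY cells it differed for Axin2 (2.47), Nkd1 (0.73), Cdx1 (1.82), Lef1 (-2.15), Tcf7 (0.81), Tcf7l1 (-0.72) and Tcf7l2 (1.28). Of these last, Tcf7l2 passed under 3 of 12 alternatives. It lost its call without any 1 of the 4 arrays at 0 h, without the 84 h arrays and without the 5 arrays of narrow spread (adjusted p 0.0523 to 0.22), with arrays centred (0.0785) or quantile normalised (0.171), and with a spline of 3 degrees of freedom (0.228). Tcf7l1 lost its call without XY array A or B at 0 h or the 84 h arrays (0.0548 to 0.0754), and with that spline Tcf7l1 and Nkd1 both did (0.139 and 0.09).

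In the reference RNA array, which no comparison used, Tcf7l2 read 11.42, above all 47 cell arrays, which ranged from 7.19 up to 9.95.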

How the results depend on the processing

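Of 950 repeats of the members' called results under the alternatives, 825 kept their direction and their side of the threshold, 120 kept the direction and missed the threshold, and 5 changed sign. Over the repeats, all 85 of Notum and 170 of 178 of Lef1 were kept, against 104 of 138 of Tcf7l2. One sign change was Tcf7l2 over the XO course, at 0.059 with a spline of 5 degrees of freedom (adjusted p = 3.18e-04). The others lay between the XX and XO courses. Leave-one-out values there were -0.496 to 0.492 for Cdx2, -1.761 to 1.494 for Lef1 and -0.379 to 0.633 for Tcf7l1. For course shapes the value is the gap at the hour where it is largest, so its sign can turn when that hour moves. Why single arrays moved it was not tested.

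Counts of the 10 genes called moved as follows. XX minus XO at 0 h gave 2 with quantile normalisation, with the low filter and with a variance trend, and 0 to 2 leaving out 1 array. XX at 6 to 18 h gave 1 with centring, with quantile normalisation, with a window of 6 to 24 h and without the 84 h arrays, and 0 to 1 leaving out 1 array. XX at 66 to 84 h gave 4 with centring and with the low filter, where Cdx1 and Tcf7l2 were added. With quantile normalisation and with a variance trend Tcf7l2 alone was added there. XY at 66 to 84 h minus 24 to 36 h gave 2 with quantile normalisation and without the 84 h arrays. The XX minus XO difference in the 66 to 84 h change gave 0 with centring and with quantile normalisation, and 0 to 1 leaving out 1 array. The XO against XY course shape gave 4 with a spline of 3 degrees of freedom and 4 to 6 leaving out 1 array. Leaving out 1 array gave 1 to 3 for XX minus XY at 0 h, XO minus XY at 0 h, XX at 36 h minus 0 h, XX at 24 to 36 h and XO at 24 to 36 h, 0 for XO at 6 to 18 h, and 1 to 2 for XY at 6 to 18 h. The XX minus XO difference in the 36 h change gave 1 with quantile normalisation, 1 with the replicate block and 0 to 1 leaving out 1 array. Where a group was left with 1 array, it was assumed to vary like the other groups.

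Letters A and B name arrays of different conditions, and their A minus B differences correlated between conditions at -0.134 to 0.189, so they were treated as a shared letter only. With the replicate block Tcf7l2 missed the threshold at 36 h (adjusted p = 0.067) and in the difference of the 36 h changes (0.0648). Centring moved the median of all genes by over 0.1 in 8 comparisons, namely by -0.109 in XX minus XO and -0.159 in XX minus XY at 0 h, -0.196 in XO at 66 to 84 h, -0.104 in XO late minus middle, 0.138 in the XX minus XO difference at 66 to 84 h, -0.24 over the XO course, and 0.484 and -0.589 in the 2 course shapes. The values of the 2 course shapes are gaps at the hour where they are largest, whose sign can turn when that hour moves. Their moves under centring are therefore not plain shifts in the scale of the arrays. Most times had 1 array per line, so that a value at a single time has no replicate.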
